A study of Mus musculus with 27 samples.

Results

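Vamp2, Sv2a, Prrt2, Kif5a and Dlg4 are 5 synaptic genes grouped under a label that names PTBP1-controlled introns. PTBP1 is a splicing repressor that binds polypyrimidine tracts. Whether it controls an intron was not tested here for any of these genes. The 5 genes were taken as the rows of the deposited expression table that carry these symbols. Each symbol had 1 row, so they make up 5 of 53379 genes listed, and all 5 passed the filter on low values that left 20611 genes to test. The label "presynaptic" fits only some of them: Dlg4 encodes PSD-95, a scaffold of the postsynaptic density, and Kif5a encodes a motor of axonal transport, so the genes are named individually here.

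The cells were E14, a mouse embryonic stem cell line grown on gelatin with LIF, which holds it undifferentiated. All of them had been transfected with siRNA at 20 uM, transfected again at 24 h and taken at 48 h. The siRNAs were directed against Ptbp1 together with Ptbp2 (siPTBP1+siPTBP2, the double knockdown), against Ptbp1 alone (siPTBP1), or against eGFP as the negative control (siGFP). Each culture was divided into chromatin (CH), nucleoplasm (NP) and cytoplasm (CY), and polyA+ RNA of each fraction was sequenced. Every one of the 9 groups of siRNA and fraction held 3 libraries, described as biological replicates, 27 in all. Both knockdowns are compared with the same siGFP libraries, so their values are given side by side and are not independent of each other.

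PTBP1 is present in most cells that are not neurons and falls during neuronal differentiation, when its paralog PTBP2 takes over. It represses neuronal exons, and it is also known to hold back the splicing of the terminal introns of a few neuronal genes, whose incompletely spliced RNA then stays in the nucleus and is degraded. Vamp2 encodes synaptobrevin, the vesicle SNARE that drives fusion of synaptic vesicles. Sv2a encodes a transporter-like glycoprotein of the vesicle membrane. Prrt2 encodes a membrane protein of the terminal that modulates SNARE-dependent release. Kif5a encodes a neuronal heavy chain of the kinesin-1 motor.

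Vamp2 (ENSMUSG00000020894) lies at chr11:69088490-69092384 on the plus strand of mm10, Sv2a (ENSMUSG00000038486) at chr3:96181151-96195521 on the plus strand, and Prrt2 (ENSMUSG00000045114) at chr7:127017531-127021211 on the minus strand. Kif5a (ENSMUSG00000074657) lies at chr10:127225696-127263348 on the minus strand and Dlg4 (ENSMUSG00000020886) at chr11:70016942-70047522 on the plus strand. The coordinates are those of GENCODE M21 on the same assembly.

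The ends of the terminal introns of Vamp2 and Prrt2 are shown because the 3′ splice site of a terminal intron is where repression by PTBP1 has been placed. For each gene the last intron of its longest annotated coding transcript was taken, and its other coding transcripts were not searched. Among the members, only Vamp2 and Prrt2 had such an intron that could be read. Both introns lie whole inside an annotated transcript that retains them, from which the letters were read (GENCODE M21). Each line gives the last 30 bases, 5′ to 3′ on the transcribed strand, with TCTT and CTCTCT, letters known to be bound by PTB proteins, in capitals.
Vamp2 intron 4, chr11:69090620-69090649, plus strand: cctcgtcctccTCTTgccCTCTCTccacag
Prrt2 intron 3, chr7:127018731-127018760, minus strand: ctgtctgTCTTtccctctcctctcccacag
In both, 25 of the 30 bases are pyrimidines, 83.3%, against a median of 66.7% over the 644 terminal introns of coding genes that could be read in this way, of which 5.43% were at least as rich. Over the last 100 bases, Vamp2 intron 4 held TCTT 3 times and CTCTCT 1 time, and Prrt2 intron 3 held TCTT 2 times and CTCTCT 1 time, searched on the transcribed strand only. Of the 644 introns, 62.6% held TCTT and 12.6% held CTCTCT in that window. Introns that are not terminal were also read. In the same window Vamp2 intron 1 held TCTT 2 times and no CTCTCT, and Prrt2 intron 2 held neither. Their last 30 bases were 73.3% and 70% pyrimidines. Since only transcripts that retain an intron supply its letters, those 644 are a small and selected share of the 20385 coding genes with introns. The terminal introns of Sv2a, Kif5a and Dlg4 could not be read in this way, so no comparison with them was possible.

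Both siRNA treatments lowered Ptbp1 RNA in CY and NP. In CY it stood at 113.05 to 200.15 TPM in the double knockdown and 110.43 to 143.82 TPM after siPTBP1, against 501.59 to 610.95 TPM in siGFP, and the groups did not overlap. In NP it was 79.37 to 152.8 TPM in the double knockdown, 88.56 to 135.79 TPM after siPTBP1 and 287.44 to 483.92 TPM in siGFP. In CH it was 218.43 to 338.86 TPM in the double knockdown, 192.1 to 293.52 TPM after siPTBP1 and 349.1 to 659.34 TPM in siGFP, a difference that passed only with the replicate block (double knockdown adjusted p = 0.030, siPTBP1 adjusted p = 0.00541). Ptbp2 had 5.43 ± 3.45 TPM in CY of the double knockdown, 13.9 ± 8.99 after siPTBP1 and 11.3 ± 6.76 in siGFP (SD, n = 3 each), with replicate 1 the lowest in each group. The double knockdown held 0.413, 0.385 and 0.393 of the Ptbp2 level of siPTBP1 in same-numbered libraries and 0.412, 0.486 and 0.489 of that of siGFP. These differences in CY passed only with the replicate block (adjusted p = 0.00506 against siPTBP1 and 0.00113 against siGFP, and 1 for both without it). In NP and CH the double knockdown held 0.686 and 0.956 of the mean Ptbp2 level of siPTBP1, and neither was called with or without the block. Against siGFP the limma difference passed with the block in NP (adjusted p = 0.00714) and not in CH (0.587). The libraries held 11837 to 19509 genes with at least 1 TPM, and the read depth behind them is unknown. The replicate 1 libraries stood apart from the others of their groups: on the first component of the within-group deviations, with 39.4% of the variance, they scored 38.9 or more and the other libraries at most -11.4. None of the calls of the 5 genes made below without the block changed when the replicate 1 library of every group was left out. Calls that passed only with the block were not fitted again without these libraries.

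The expression unit throughout is TPM, the share of each library's transcripts that a gene takes after scaling for length, on a fixed total. It cannot tell fewer cells with an RNA from less RNA per cell, nor spliced from unspliced RNA of a gene. In siGFP the 5 genes were all detected, and every one had its highest level in CH. The siGFP means in CH, NP and CY were 72.8, 23.2 and 16.5 TPM for Vamp2, 7.1, 5.64 and 1.04 TPM for Sv2a, and 8.56, 1.62 and 0.607 TPM for Prrt2. For Kif5a they were 18.8, 3.95 and 3.39 TPM and for Dlg4 55.9, 17.3 and 20.5 TPM. In the cytoplasm of control cells Prrt2 and Sv2a were thus at about 1 TPM or less, and Vamp2 and Dlg4 were the most abundant of the 5 in each fraction.

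**Figure D1:**
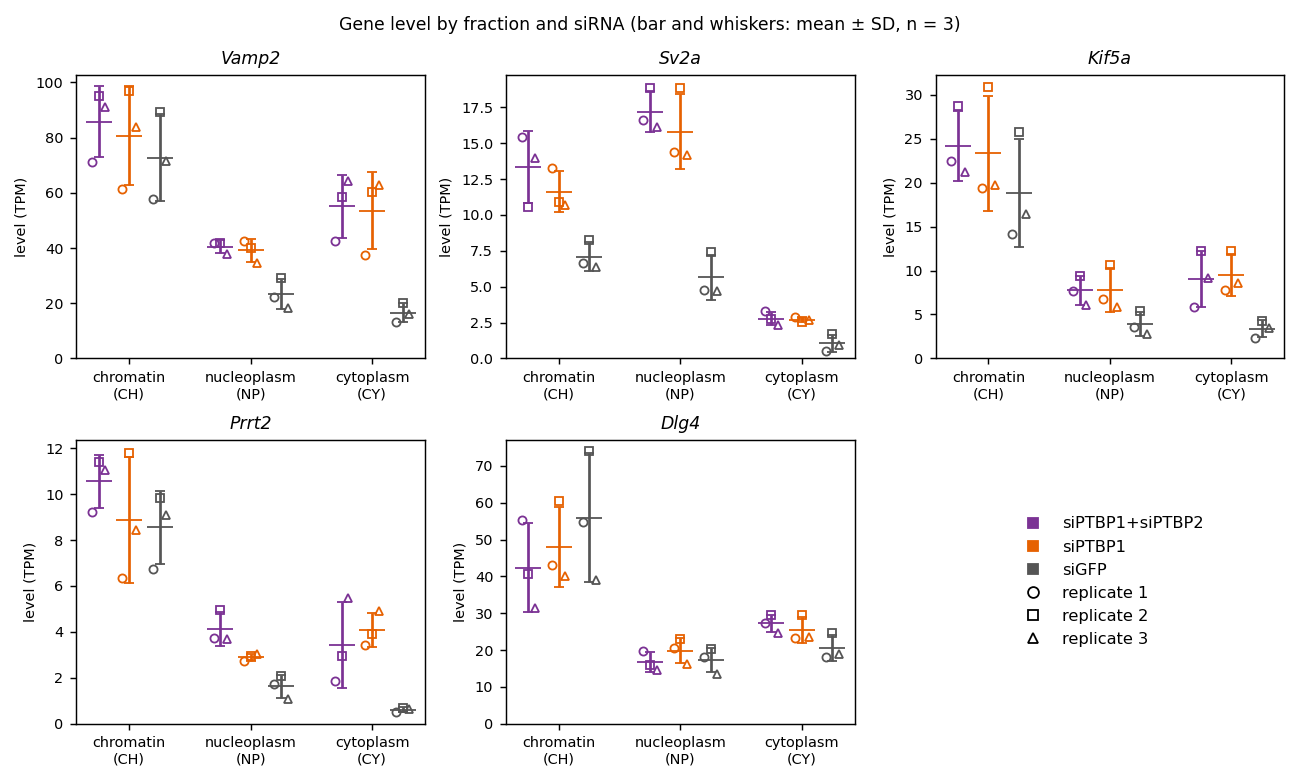
Level in TPM of each gene in chromatin, nucleoplasm and cytoplasm, with siPTBP1+siPTBP2, siPTBP1 and siGFP from left to right; symbols are single libraries, bars and whiskers the mean ± SD of 3. In cytoplasm Vamp2 lies at 37.38 to 64.32 TPM in the knockdown libraries, above the 13.16 to 20.1 TPM of siGFP, whereas the chromatin groups overlap for every gene except Sv2a.

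Vamp2 rose in the cytoplasm after both siRNA treatments and not detectably in chromatin. In CY its levels in replicates 1, 2 and 3 were 42.44, 58.41 and 64.32 TPM in the double knockdown, 37.38, 60.18 and 62.76 TPM after siPTBP1, and 13.16, 20.1 and 16.22 TPM in siGFP. All knockdown libraries lay above all control libraries. The ratio of the means to siGFP was 3.34 for the double knockdown and 3.24 for siPTBP1. On log2(TPM + 1) the differences were 1.68 ± 0.241 (SE, adjusted p = 0.00176) and 1.62 ± 0.241 (SE, adjusted p = 0.00196), from limma with Benjamini-Hochberg adjustment over all 20611 genes. A gene with an adjusted p under 0.05 is said to be called.

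In NP Vamp2 had 41.96, 41.93 and 37.66 TPM in the double knockdown, 42.66, 40.1 and 34.72 TPM after siPTBP1, and 22.39, 28.96 and 18.26 TPM in siGFP. The groups again did not overlap, but the differences of 0.80 and 0.75 passed only when replicate number was a block in the fit (adjusted p = 0.350 and 0.445 without the block, 0.0201 and 0.0300 with it). In CH the levels were 71.35, 94.98 and 91.23 TPM in the double knockdown, 61.48, 96.74 and 84.01 TPM after siPTBP1, and 57.63, 89.24 and 71.38 TPM in siGFP. The 3 groups overlapped, and each knockdown library was above the siGFP library of its own number by a factor of 1.06 to 1.28. The log2 difference in CH was 0.25 in the double knockdown, with a 95% interval of -0.25 to 0.75, and 0.15 after siPTBP1, with an interval of -0.36 to 0.65.

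Prrt2 rose most in relative terms in the cytoplasm. In CY it had 1.84, 2.97 and 5.48 TPM in the double knockdown, 3.44, 3.92 and 4.89 TPM after siPTBP1, and 0.49, 0.69 and 0.64 TPM in siGFP. The 3 control libraries were all below 1 TPM and every knockdown library was above them, with the double knockdown the more spread of the 2 treatments. The ratio of means was 5.65 for the double knockdown and 6.73 for siPTBP1, and the log2 differences were 1.38 ± 0.254 (adjusted p = 0.0134) and 1.65 ± 0.254 (SE, adjusted p = 0.00273). The call in the double knockdown was sensitive to leaving out single libraries. It was lost without replicate 1 of siGFP (log2 difference 1.33, adjusted p = 0.0932) or replicate 3 of siGFP (1.40, adjusted p = 0.0718). It was also lost without replicate 2 (1.42, adjusted p = 0.0559) or replicate 3 (1.07, adjusted p = 0.124) of the double knockdown. The siPTBP1 call was kept in each such fit.

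In NP Prrt2 had 3.72, 4.96 and 3.68 TPM in the double knockdown, 2.72, 2.94 and 3.03 TPM after siPTBP1, and 1.73, 2.08 and 1.06 TPM in siGFP. The order of the 3 treatments was without overlap, although neither difference was called (0.98, adjusted p = 0.192, and 0.59, adjusted p = 0.862); the first passed with the replicate block (adjusted p = 0.0150). In CH it had 9.24, 11.4 and 11.03 TPM in the double knockdown, 6.35, 11.8 and 8.44 TPM after siPTBP1, and 6.76, 9.81 and 9.1 TPM in siGFP, and the groups overlapped. The log2 difference in CH was 0.28 in the double knockdown and 0.02 after siPTBP1 (adjusted p = 1 each).

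The Prrt2 values carry a limit of annotation. A coding gene on the same strand, Gm42742 at chr7:127015051-127021097, overlaps Prrt2, and one of its transcripts holds introns 2 and 3 of Prrt2 whole, so reads from both cannot be assigned with certainty. Gm42742, looked at after its values were seen, was more abundant than Prrt2 in CY, with 73.5 ± 26.7 TPM in the double knockdown, 60.1 ± 4.84 TPM after siPTBP1 and 44.2 ± 4.34 TPM in siGFP (SD, n = 3 each). Its log2 differences of 0.67 and 0.44 were not called (adjusted p = 0.705 and 1), the first passing with the block (0.00972). Its part in the Prrt2 values was not tested.

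Sv2a rose in the nucleoplasm. In NP it had 16.63, 18.87 and 16.14 TPM in the double knockdown, 14.38, 18.82 and 14.2 TPM after siPTBP1, and 4.78, 7.44 and 4.71 TPM in siGFP. The lowest knockdown library, at 14.2 TPM, lay far above the highest control library, at 7.44 TPM. The ratio of means was 3.05 in the double knockdown and 2.80 after siPTBP1, and the log2 differences were 1.48 ± 0.218 (adjusted p = 0.00230) and 1.35 ± 0.218 (SE, adjusted p = 0.00434). Without replicate 2 of siPTBP1 the siPTBP1 call was lost (adjusted p = 0.0622).

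Sv2a was also the only one of the 5 whose knockdown and control libraries did not overlap in chromatin. In CH it had 15.46, 10.54 and 13.99 TPM in the double knockdown, 13.25, 10.88 and 10.69 TPM after siPTBP1, and 6.68, 8.25 and 6.36 TPM in siGFP. The log2 differences of 0.82 and 0.64 were not called (adjusted p = 0.128 and 0.332), and with the block only the double knockdown passed (0.0241 and, for siPTBP1, 0.0777). In CY it had 3.28, 2.73 and 2.33 TPM in the double knockdown, 2.87, 2.57 and 2.69 TPM after siPTBP1, and 0.52, 1.71 and 0.9 TPM in siGFP. These groups did not overlap either, with a ratio of means of 2.66 in the double knockdown and 2.60 after siPTBP1. The log2 differences of 0.92 and 0.90 missed the threshold (adjusted p = 0.0997 and 0.129) but passed with the block (0.00869 and 0.0128), with a pseudocount of 0.1 (0.0229 and 0.0292), and without replicate 2 of siGFP, the highest control library (0.0331 and 0.0392).

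Kif5a was higher in every knockdown library of CY and NP than in any siGFP library of that fraction, and was called in neither without the block. In CY it had 5.81, 12.22 and 9.16 TPM in the double knockdown, 7.73, 12.22 and 8.53 TPM after siPTBP1, and 2.35, 4.31 and 3.5 TPM in siGFP. In NP it had 7.71, 9.43 and 6.08 TPM in the double knockdown, 6.71, 10.6 and 5.9 TPM after siPTBP1, and 3.57, 5.44 and 2.83 TPM in siGFP. Replicate 2 held the highest Kif5a value in all 9 groups, whatever the treatment or fraction. The ratio of means in CY was 2.68 for the double knockdown and 2.80 for siPTBP1. The log2 differences in CY were 1.17 ± 0.301 (adjusted p = 0.159) and 1.26 ± 0.301 (SE, adjusted p = 0.124). With replicate number as a block they passed (8.53e-05 and 5.06e-05), as did those in NP of 0.84 and 0.82 (0.00465 and 0.00518, against 0.604 and 0.662 without it). Rescaling the libraries by median-ratio factors also brought the CY differences past the threshold (0.00743 and 0.0184). In CH Kif5a had 22.46, 28.69 and 21.26 TPM in the double knockdown, 19.38, 30.88 and 19.72 TPM after siPTBP1, and 14.21, 25.82 and 16.4 TPM in siGFP, with overlapping groups and log2 differences of 0.38 and 0.31 (adjusted p = 1 each).

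Dlg4 was not called in any fraction, with or without the block. In CY it had 27.44, 29.52 and 24.69 TPM in the double knockdown, 23.28, 29.63 and 23.43 TPM after siPTBP1, and 18.2, 24.52 and 18.79 TPM in siGFP. Each knockdown library was above the control library of its number by a factor of 1.20 to 1.51, and the log2 differences were 0.40 (95% interval -0.11 to 0.91) and 0.30 (-0.21 to 0.81). In NP it had 19.85, 15.98 and 14.65 TPM in the double knockdown, 20.43, 22.89 and 16.2 TPM after siPTBP1, and 18.09, 20.14 and 13.62 TPM in siGFP, which overlapped. In CH, where its level was highest, it had 55.23, 40.65 and 31.3 TPM in the double knockdown, 43.16, 60.34 and 40.2 TPM after siPTBP1, and 54.73, 74.04 and 38.99 TPM in siGFP. The log2 differences in CH of -0.38 (interval -0.89 to 0.13) and -0.19 (-0.70 to 0.32) were the only negative ones of the 5 genes in that fraction. These intervals leave room for a rise in CY of up to about the size that Sv2a showed there, so the data do not show that Dlg4 was unresponsive.

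**Figure D2:**
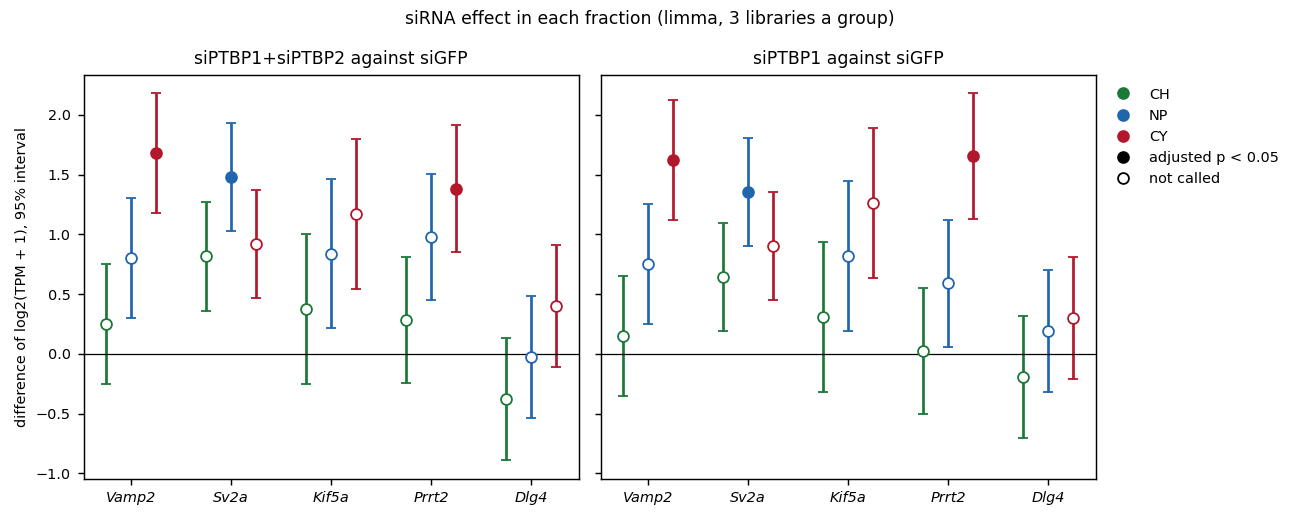
Difference of log2(TPM + 1) from siGFP with its 95% interval (limma), for the double knockdown on the left and siPTBP1 on the right, in CH, NP and CY. Filled points have an adjusted p under 0.05: Vamp2 and Prrt2 in CY and Sv2a in NP.

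The 5 genes were chosen with earlier results of these data known, so counts of them beside all genes are descriptions only. Counted together, 2 of the 5 genes were called higher in CY after each treatment, where 0.15% of all tested genes were called higher in the double knockdown and 0.16% after siPTBP1. In NP 1 of the 5 was called higher, against 0.0922% and 0.107% of all genes. In CH none was called by limma, where 0.325% and 0.272% of all genes were called higher. There 1 of the 5 had an unadjusted p under 0.05 after each treatment, as had 1431 and 1371 of all 20611 genes. With replicate number as a block, 4 of the 5 were called higher in CY after each treatment, where 1.7% and 1.33% of all genes were. In NP the blocked fit called 4 in the double knockdown and 3 after siPTBP1, against 1.14% and 1.2%, and in CH it called 1 and 0, against 1.64% and 1.82%. In a limma fit of the compared groups alone, the calls of Vamp2 and Prrt2 in CY and of Sv2a in NP were all lost (adjusted p between 0.0654 and 0.528).

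Separation of the libraries gave a like picture, with the same limit from the choice of genes. In CY all 5 genes in the double knockdown and 4 after siPTBP1 had every knockdown library above every siGFP library, which held for 6.91% and 9.17% of all tested genes. The margin of Dlg4 in the double knockdown was narrow, 24.69 TPM against 24.52 TPM in the highest siGFP library. In NP such separation held for 4 and 4 of the 5 genes, against 5.11% and 5.08%, and in CH for 1 and 1, against 5.39% and 5.87%. The median log2 difference of the 5 genes in CY was 1.17 in the double knockdown and 1.26 after siPTBP1, beside 0 and 0.06 over all tested genes. In NP it was 0.84 and 0.75, beside -0.01 and -0.01, and in CH 0.28 and 0.15, beside 0.07 and 0.09.

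**Figure D3:**
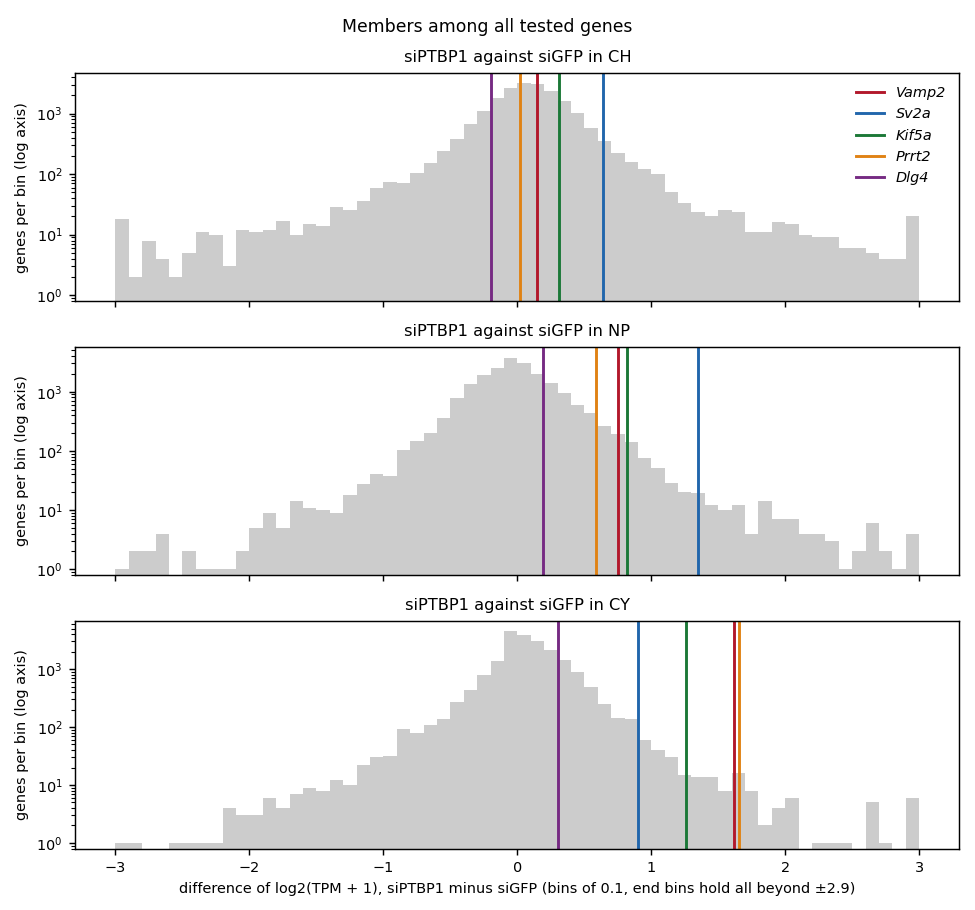
Histograms of the siPTBP1 minus siGFP difference of log2(TPM + 1) over all 20611 tested genes in CH, NP and CY, on a log count axis, with the 5 genes as vertical lines. From CH to CY the lines of Vamp2, Prrt2 and Kif5a move out to 1.26 to 1.65. The line of Dlg4 moves from -0.19 to 0.30 and that of Sv2a from 0.64 to 0.90.

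Targeting Ptbp2 in addition made no difference that was called in these genes. Between the double knockdown and siPTBP1 none of the 5 was called in any fraction, with or without the block, and none had an unadjusted limma p under 0.05, the smallest being 0.145. Over all tested genes 0% were called in CY, 0.00485% in NP and 0.107% in CH. Those at an unadjusted p under 0.05 numbered 147, 151 and 662 genes. The largest difference was that of Prrt2 in NP, 0.39 (95% interval -0.14 to 0.91), where the libraries did not overlap, as held for 1.1% of all genes, and the next was Prrt2 in CY, -0.27 (-0.80 to 0.26). For Vamp2 the interval in CY was -0.44 to 0.56 around 0.06. Differences of up to these bounds are compatible with the spread between replicates. In NP and CH Ptbp2 RNA itself was not called lower than after siPTBP1, with or without the block.

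The chromatin to cytoplasm ratio describes how the RNA of each gene was divided between fractions. Since each fraction is scaled to its own total, the ratio is relative to the other RNA of those fractions. Over all tested genes that could be used its median was 2.63 in the double knockdown, 2.47 after siPTBP1 and 2.56 in siGFP. In siGFP all 5 genes were called higher in CH than in CY, where 57.9% of all genes were called higher. The log2 differences were 2.07 for Vamp2, 2.02 for Sv2a, 2.56 for Prrt2, 2.16 for Kif5a and 1.37 for Dlg4, beside a median of 0.95 over all genes. With median-ratio scaling that median was 0.26 and Dlg4 was not called (0.33, adjusted p = 0.315), while the other 4 were. Over the alternative fits other than leaving out single libraries, 11660 to 17172 of all genes were called in either direction. Between NP and CY in siGFP only Sv2a was called higher (1.72, adjusted p = 6.16e-06), where 12.3% of all genes were called higher. Prrt2 joined it with the block (0.69, adjusted p = 0.0861 without and 0.0144 with it), where 23.5% of all genes were called higher.

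Vamp2 had a ratio of CH to CY in same-numbered libraries of 1.68, 1.63 and 1.42 in the double knockdown and 1.64, 1.61 and 1.34 after siPTBP1, against 4.38, 4.44 and 4.40 in siGFP. The controls were within 0.031 (SD) of their mean and far above all knockdown values. Whereas Vamp2 in siGFP cells was more weighted to chromatin than the median gene, in knockdown cells it was less so. The Prrt2 ratio was 5.02, 3.84 and 2.01 in the double knockdown and 1.85, 3.01 and 1.73 after siPTBP1, against 13.8, 14.2 and 14.2 in siGFP. Again the groups did not overlap.

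The Kif5a ratio was 3.87, 2.35 and 2.32 in the double knockdown and 2.51, 2.53 and 2.31 after siPTBP1, against 6.05, 5.99 and 4.69 in siGFP. The Sv2a ratio was 4.71, 3.86 and 6.004 in the double knockdown and 4.62, 4.23 and 3.97 after siPTBP1, against 12.8, 4.82 and 7.07 in siGFP, where the control libraries spread widely. The Dlg4 ratio was 2.01, 1.38 and 1.27 in the double knockdown and 1.85, 2.04 and 1.72 after siPTBP1, against 3.01, 3.02 and 2.08 in siGFP. In the double knockdown 4 of the 5 genes, all but Sv2a, had every ratio below those of siGFP, which held for 4.43% of the tested genes with a level above 0 in each CY library compared. After siPTBP1 it held for all 5, against 5.42% of such genes, with narrow margins for Sv2a and Dlg4.

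**Figure D4:**
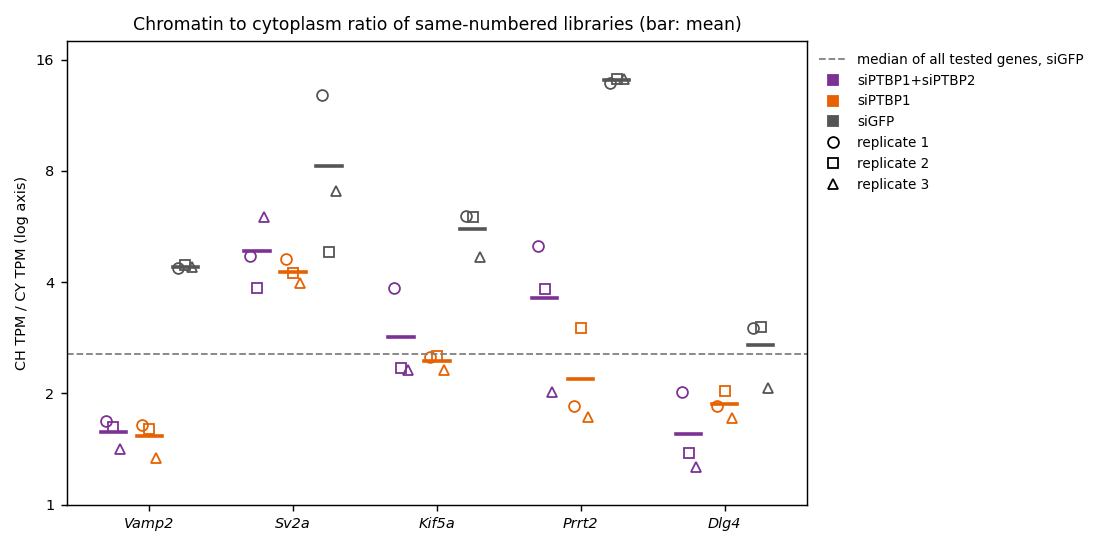
Ratio of CH to CY TPM of same-numbered libraries on a log axis, for siPTBP1+siPTBP2, siPTBP1 and siGFP from left to right within each gene; bars are means of 3 and the dashed line is the median of all genes in siGFP, 2.56. The Vamp2 ratio averages 1.58 in the double knockdown, 1.53 after siPTBP1 and 4.41 in siGFP, and the Prrt2 ratio 3.62 in the double knockdown, 2.19 after siPTBP1 and 14.1 in siGFP.

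The test of this change is the difference between the effect in CH and the effect in CY. Fractions of the same culture entered it as separate libraries, without a term for the culture. For Vamp2 it was -1.43 ± 0.341 in the double knockdown (adjusted p = 0.277) and -1.47 ± 0.341 after siPTBP1 (SE, adjusted p = 0.234), and for Prrt2 it was -1.10 ± 0.360 (adjusted p = 0.947) and -1.63 ± 0.360 (adjusted p = 0.184). None of the 5 genes was called by limma in either comparison, where 0.0582% and 0.0437% of all genes were called. In each, 3 of the 5 had an unadjusted p under 0.05, as had 635 and 532 of all 20611 genes. With replicate number as a block, Vamp2 passed for the double knockdown (0.00872) and for siPTBP1 (0.00868), and Prrt2 passed for siPTBP1 (0.0140) but not for the double knockdown (0.143). In that fit 0.0437% and 0.0582% of all genes were called lower. With median-ratio scaling and no block, Vamp2 passed for both (0.0142 and 0.0411) and Prrt2 for siPTBP1 (0.0124).

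For Kif5a the difference of effects was -0.80 and -0.95, and for Dlg4 -0.78 and -0.50, none of them called with or without the block. Sv2a differed least between CH and CY, by -0.11 (95% interval -0.75 to 0.53) and -0.26 (-0.90 to 0.38). Between NP and CY no difference of effects was called for any of the 5, with or without the block, where 0.00485% of all genes were called in each comparison. By limma 1 of the 5 had an unadjusted p under 0.05 in the double knockdown and 2 after siPTBP1. Over all 20611 genes 237 and 215 had one. The estimates after siPTBP1 were -0.87 for Vamp2, -1.06 for Prrt2 and -0.44 for Kif5a, and 0.45 for Sv2a, the only positive one. After adjustment over all genes the order of CY and NP was thus not resolved for any of them.

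The order of the 9 group means set Sv2a apart in description. Its 2 highest groups were NP of the double knockdown and of siPTBP1, with 17.2 ± 1.46 and 15.8 ± 2.62 TPM, followed by CH of the double knockdown and of siPTBP1, with 13.3 ± 2.53 and 11.6 ± 1.43 TPM (SD, n = 3 each), and neighbours among these 4 overlapped. For Vamp2, Prrt2 and Kif5a the 3 CH groups were highest and siGFP CY lowest. Their neighbouring groups mostly overlapped, but for all 3 genes NP of siPTBP1 lay clear of NP of siGFP. For Kif5a and Prrt2 CH of siGFP lay clear of the next group, and for Prrt2 NP of siGFP also lay clear of CY of siGFP. Dlg4 had its 3 CH groups highest and its remaining 6 groups between 16.8 and 27.2 TPM, each overlapping the next. Over the 9 group means of log2(TPM + 1), which share libraries and fractions, Pearson's r was 0.963 between Vamp2 and Kif5a, 0.964 between Vamp2 and Prrt2 and 0.976 between Kif5a and Prrt2. Sv2a had r of 0.494 with Vamp2, 0.51 with Kif5a, 0.607 with Prrt2 and 0.150 with Dlg4.

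Among 14519 named genes the pattern most like that of Vamp2 over the 9 group means was that of Arl8a (r = 0.976), followed by Dnajc5 (0.972). Most like Kif5a were Klc1 (0.994), Dnajc5 (0.993) and Neurl2 (0.993), and most like Prrt2 were Ppp1r12b (0.987), Snx24 (0.983) and Atat1 (0.983). Most like Sv2a were Slc39a3 (0.994), Selenon (0.990) and Dchs1 (0.990), and most like Dlg4 were Plk5 (0.993), Slc25a26 (0.988) and Lzts2 (0.987). These likenesses rest on 9 points of which most of the spread lies between fractions, and are descriptions.

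Klc1, a kinesin light chain that binds the Kif5 heavy chains, was called higher in CY, with 52.3 ± 13.97 TPM in the double knockdown, 57.3 ± 5.76 TPM after siPTBP1 and 21.8 ± 4.96 TPM in siGFP (SD, n = 3 each). The log2 differences were 1.21 (adjusted p = 0.0228) and 1.37 (adjusted p = 0.00896). It was the only one of 6 other kinesin-1 genes called in CY. The Kif5 paralogs, singled out after their values were seen, overlapped between treatments in CY. Kif5b averaged 17.1 ± 9.33 TPM in the double knockdown, 19.1 ± 9.61 TPM after siPTBP1 and 16.3 ± 6.62 TPM in siGFP, and Kif5c 8.6 ± 4.27 TPM in the double knockdown, 7.87 ± 4.27 TPM after siPTBP1 and 8.01 ± 2.99 TPM in siGFP (SD, n = 3 each).

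Other genes of the synapse were mostly not called. In the list of vesicle docking and fusion, Napb, an attachment protein that helps to disassemble SNARE complexes, was called higher in CH in the double knockdown (1.66, adjusted p = 0.0372) and just missed after siPTBP1 (1.57, adjusted p = 0.0518, and 1.86e-06 with the block). Its CH levels were 12.15, 26.64 and 23.53 TPM in the double knockdown, 12.21, 24.77 and 20.9 TPM after siPTBP1, and 3.81, 7.91 and 5.63 TPM in siGFP, and its CY libraries overlapped, with means of 1.41 TPM in the double knockdown, 1.69 TPM after siPTBP1 and 1.31 TPM in siGFP. In the double knockdown Napb was thus called in chromatin and not in cytoplasm, and Vamp2 in cytoplasm and not in chromatin. For Napb the limma difference between the effects in CH and CY was 1.63. It passed only with the block (adjusted p = 0.785 without and 0.000144 with it).

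Of 9 tested genes of the vesicle membrane and its cargo, none was called in CY by limma without the block, with medians of -0.01 and 0.01. Sv2c, a paralog of Sv2a, was called higher in NP after both treatments, as Sv2a was. It had 3.78, 6.14 and 6.13 TPM in the double knockdown and 4.47, 7.28 and 5.52 TPM after siPTBP1, against 1.06, 2.03 and 1.81 TPM in siGFP, with log2 differences of 1.26 (adjusted p = 0.0364) and 1.36 (adjusted p = 0.0163). In CH it was called after siPTBP1 (1.22, adjusted p = 0.0280) and not in the double knockdown (1.04, adjusted p = 0.0749, and 0.00272 with the block). Vamp1, the closest paralog of Vamp2, had 2.92 ± 0.612 TPM in CY of the double knockdown, 3.20 ± 0.0971 TPM after siPTBP1 and 1.02 ± 0.276 TPM in siGFP (SD, n = 3 each), which passed only with the block (0.00157 and 0.000516). None of the 4 tested other members of the synaptobrevin family was called with or without the block.

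None of the 3 tested paralogs of Dlg4 was called without the block. Dlg3, which encodes the related scaffold SAP102, had CY levels of 1.97, 6.08 and 3.48 TPM in the double knockdown and 3.1, 6.61 and 4.57 TPM after siPTBP1, against 5.41, 16.24 and 10.68 TPM in siGFP. Every knockdown library was below the control of its number, and the log2 differences of -1.26 and -0.96 passed with the block alone (adjusted p = 0.000151 and 0.00297). Of 16 tested partners of PSD-95 in the postsynaptic density, none was called in CY without the block. With it Camk2a, a kinase subunit of the postsynaptic density, passed in CY for both treatments (0.66, adjusted p = 0.0262, and 0.72, adjusted p = 0.0191).

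Markers of neurons and of neural progenitors were measured beside these genes. The summed level of 15 neuron markers in CY was 352 to 404 TPM in the double knockdown, 317 to 405 TPM after siPTBP1 and 294 to 391 TPM in siGFP, ranges that overlapped. Between 9 and 10 of the 15 had a mean of at least 1 TPM in each CY group, and most of the sum came from Tubb3 and Stmn2. Tubb3, a neuronal tubulin, averaged 225 TPM in the double knockdown, 187 TPM after siPTBP1 and 182 TPM in siGFP, and Stmn2 averaged 71.6 TPM in the double knockdown, 89.9 TPM after siPTBP1 and 81.5 TPM in siGFP. Dcx was at most 0.05 TPM and Syt1 at most 0.12 TPM in any CY library, and Snap25 averaged 0.707 TPM in the double knockdown, 0.897 TPM after siPTBP1 and 0.177 TPM in siGFP. None of the 13 tested was called in CY by limma without the block. With it 1 passed after each treatment, Rbfox3, which encodes the neuronal nuclear protein NeuN, with 1.88 TPM in the double knockdown (adjusted p = 0.0240) and 2.46 TPM after siPTBP1 (adjusted p = 0.00185), against 0.787 TPM in siGFP. The sum of 10 neural progenitor markers in CY was 32.1 to 49.3 TPM in the double knockdown and 29.5 to 46.2 TPM after siPTBP1. In siGFP it was 17.2 to 29.2 TPM, without overlap, but the margin after siPTBP1 was narrow, 29.52 TPM against 29.18 TPM. Only 4, 4 and 3 of the 10 had a mean of at least 1 TPM in these groups. Sox3 averaged 14.3, 12.5 and 5.66 TPM and Sox1 3.63, 3.28 and 0.843 TPM, in the same order. With the block Sox1 and Sox3 passed for both treatments, where 1.7% and 1.33% of all genes were called higher. The sum of 12 pluripotency markers in CY was 4083 to 4849 TPM in the double knockdown and 3970 to 4623 TPM after siPTBP1, against 4833 to 5175 TPM in siGFP. The part of these shifts in the levels of the 5 genes was not tested.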

How the data were processed

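PolyA+ RNA of 3 fractions was sequenced from stranded libraries of 27 samples. The authors deposited 1 table of TPM per gene; per the submitters' processing notes STAR and kallisto were used with mm10, and versions and the annotation release are not given in the sources used here. TPM keeps no depth, so reads per library are unknown and counting error cannot be given; an exact 0 may be a failed estimate. All per-sample columns matched a sample. Groups came from the labels.

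Genes with at least 1 TPM in at least 3 libraries entered a linear model of log2(TPM + 1), fitted by limma 3.58.1 under R 4.3.3 (trend and robust, two-sided), with 9 group means over all 27 libraries and 18 residual degrees of freedom, and called at a Benjamini-Hochberg adjusted p under 0.05 over all 20611 genes. The scale understates changes of low genes. The p-values rest on the spread among replicate libraries.

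Replicate numbers were checked for pairing. Within-group deviations of the 108 same-numbered pairs correlated at 0.130 or more (median 0.365), against a median of -0.213 for pairs sharing neither number nor group, and 27 of 27 libraries correlated best with their own number. Since the deviations of each group sum to 0, a positive median for same-numbered pairs draws the other median below 0. The second median is therefore not separate evidence. The numbers were therefore taken to pair the samples, on the evidence of the values alone, because no label explains them. The main fit leaves this pairing out. Neither it nor the blocked fit has a term for the culture that fractions share. A fit blocked on that number (16 residual degrees of freedom) is an alternative, as are a pseudocount of 0.1, no filter on low values, median-ratio scaling, a fit of the groups compared only, leaving out each library, and, added after the data were seen, leaving out replicate 1 of every group.

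Genes named are the 5 members, Ptbp1 and Ptbp2, at most 4 per list (those called or with the smallest p) and the 3 most like each member; others are marked as chosen after their values were seen. Results for 1 gene that this rule names, and the counts of its list, are not reported here. Members and lists (vesicle docking and fusion, vesicle membrane and cargo, kinesin-1, synaptobrevins, discs large scaffolds, postsynaptic partners, neuron, neural progenitor and pluripotency markers) were chosen with earlier results of these data known. Intron letters were read from GENCODE M21 transcripts, a choice made after the files were seen, since no genome sequence was used here.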

Additional observations from a re-analysis of the deposited data

How the results depend on the processing

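Under all alternatives run, none of the 5 genes turned direction where a call was involved. With replicate number as a block, the number of the 5 called in the double knockdown was 4 in CY, 4 in NP and 1 in CH, against 2, 1 and 0 without it. After siPTBP1 it was 4 in CY and 3 in NP, against 2 and 1. The block also gave 2 for NP against CY in siGFP, against 1, and for the effect in CH against CY 1 in the double knockdown and 2 after siPTBP1, against 0 each. Of 75 values the block gained 14 calls and lost none. A fit of the groups compared only, with fewer libraries to estimate the spread, left 0 called in CY and 0 in NP for both treatments (Vamp2 in CY at adjusted p = 0.267 in the double knockdown and 0.207 after siPTBP1). Median-ratio scaling gave 3 in CY for each treatment, through Kif5a, 2 in NP for the double knockdown and, for the effect in CH against CY, 1 in the double knockdown and 2 after siPTBP1. A pseudocount of 0.1 gave 3 in CY for each treatment, through Sv2a, 2 for NP against CY in siGFP, and 1 for the siPTBP1 effect in CH against CY (Prrt2, adjusted p = 0.0389). The counts of all genes under scaling or the lower pseudocount alone are not given here. These numbers of the 5 are therefore descriptions only. Leaving out single libraries gave 1 to 3 in CY for the double knockdown, 2 to 3 in CY for siPTBP1 and 0 to 1 in NP for siPTBP1, and the full-data number elsewhere. Without the filter, and without replicate 1 of every group, no call of the 5 in the main fit changed. The blocked fit was not run with these settings. The cause of these changes was not tested.

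Counts of all genes called moved more. With single libraries left out, the double knockdown gave between 21 and 51 genes for CY (50 with all libraries), between 19 and 29 for NP (32) and between 50 and 181 for CH (88). For siPTBP1 the limits were 22 and 39 for CY (47), 17 and 35 for NP (33), and 62 and 184 for CH (82). Among the other alternatives the fit of the groups compared only gave the fewest and the block the most. For the double knockdown these were 0 and 547 genes (CY), 2 and 379 (NP), 6 and 436 (CH). For siPTBP1 they were 8 and 377 (CY), 4 and 388 (NP), 24 and 505 (CH). For the effect in CH against CY the range over all alternatives was 5 to 79 in the double knockdown (12) and 8 to 50 after siPTBP1 (9), and for that in NP against CY it was 1 to 8 and 1 to 9 (1 each). For NP against CY in siGFP it was 1803 to 5830 (2638). For the double knockdown against siPTBP1 it was 11 to 135 in CH (22), 0 to 9 in NP (1) and 0 to 4 in CY (0). With 3 libraries a group and unknown depth, levels under 1 TPM, such as that of Prrt2 in CY of siGFP, are the least certain.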
